A study of Mus musculus with 6 samples.

Results

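The genes described here are *Edn1*, *Edn3*, *Ednra*, *Ednrb*, *Ece1* and *Ece2*, the endothelin ligands, receptors and converting enzymes, chosen by name, with no threshold on their values. These are 6 of the 50600 genes with read counts in RNA sequencing of the cardiac side population (SP), the heart cells that extrude the Hoechst DNA dye. There were 6 libraries, 3 from wild-type mice (wt, strain C57BL/6NRj) and 3 labelled flt3L-/- (strain C57BL/6Flt3Ltml/mx on a C57BL/6N background), which are meant to lack Flt3 ligand, a growth factor of blood progenitors, in all cells. All mice were 8 to 12 weeks old, each library held the pooled SP cells of 4 hearts sequenced without culture, and all hearts were depleted of cardiomyocytes and erythrocytes before the sort. A wt and an flt3L-/- sort were made on each of 3 dates, numbered here as pairs 1 to 3, and the comparison asked how gene expression of SP cells differs without Flt3 ligand.

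Endothelins are short peptides that are cut from larger precursors, first by furin-like proteases and then by the endothelin-converting enzymes encoded by *Ece1* and *Ece2*. In the heart, endothelin-1 (*Edn1*) is made mainly by endothelial cells. It acts on the type A receptor (*Ednra*) of smooth muscle cells, pericytes, fibroblasts and cardiomyocytes, where it drives contraction and growth, and on the type B receptor (*Ednrb*), which in endothelial cells triggers nitric oxide release and clears the peptide. Endothelin-3 (*Edn3*) binds the type B receptor far better than the type A receptor and is best known from neural crest cells, which form melanocytes and gut neurons.

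The part of each precursor that becomes the active peptide shows how close the ligands are. It is coded by 21 codons, here the 63 bases of GRCm38 in exon 2 of *Edn1* (chr13:42303649-42303711, plus strand), *Edn2* (chr4:120161951-120162013, plus strand) and *Edn3* (chr2:174761749-174761811, plus strand), read from the GENCODE transcripts. Capitals mark codons for another amino acid than in *Edn1*.
Edn1: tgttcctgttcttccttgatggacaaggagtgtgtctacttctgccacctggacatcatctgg
Edn2: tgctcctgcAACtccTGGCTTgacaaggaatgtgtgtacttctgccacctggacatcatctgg
Edn3: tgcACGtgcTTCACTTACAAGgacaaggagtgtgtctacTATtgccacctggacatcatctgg
*Edn2*, the third ligand gene, shown for comparison, has 3 codons for another amino acid than *Edn1*, and *Edn3* has 6. The precursors as a whole share 37.4% (*Edn1* and *Edn2*) and 36.2% (*Edn1* and *Edn3*) of aligned residues.

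The converting enzymes are zinc proteases, and the stretch around the zinc site is nearly the same in both. The 45 bases below are from exon 17 of *Ece1* (chr4:137957157-137957201, plus strand) and exon 16 of *Ece2* (chr16:20643875-20643919, plus strand) of GRCm38. Capitals mark the codons of both histidines and of the glutamate of the zinc motif.
Ece1: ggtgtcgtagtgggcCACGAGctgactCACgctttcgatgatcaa
Ece2: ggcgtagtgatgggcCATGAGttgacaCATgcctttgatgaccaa
The enzymes share 62.3% of aligned residues, and the receptors, which are 427 (*Ednra*) and 442 (*Ednrb*) residues long, share 57.3%.

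Total counts per library lay between 24370913 and 31145519, so that 3 counts correspond to 0.109 to 0.127 CPM, the count scaled to a common library size with TMM factors, edgeR's correction for library composition. *Flt3l* itself did not check the labels, since its reads were not lower in the libraries labelled flt3L-/-. Its values were 8.67, 10.8 and 12.1 CPM in wt and 13.6, 12.4 and 14.4 CPM in flt3L-/- in pairs 1, 2 and 3, and 22.1% of its exon bases are shared with *Gm45713*. Of genes chosen after their values were seen, *Abcg2*, the transporter that exports the Hoechst dye, lay between 147 and 274 CPM and *Ly6a*, which encodes Sca1, between 523 and 1791 CPM. *Pecam1*, which encodes CD31, lay between 873 and 1524 CPM, so RNA of endothelial cells was present in each library. Of 10 lists of cell type markers, the summed CPM of fibroblast and of leukocyte markers spread most over the libraries. The wt library of pair 1 had the highest sum of 12 fibroblast markers, 17005 CPM, against 3638 to 11074 CPM in the other libraries. The wt library of pair 3 had the highest sum of 10 leukocyte markers, 1850 CPM, against 227 to 977 CPM in the others.

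Cardiac SP cells held much RNA of the converting enzyme *Ece1*, of the receptor *Ednrb* and of the ligand *Edn1*, little of *Ece2* and *Ednra*, and almost none of *Edn3*. Levels of different genes were compared as CPM per kb of exon. *Ece1* (ENSMUSG00000057530, chromosome 4, 137862237 to 137965229, plus strand) lay between 157 and 195 CPM per kb, and 98.5% of the 13475 tested protein-coding genes had a lower mean level per kb. *Ednrb* (ENSMUSG00000022122, chromosome 14, 103814625 to 103844402, minus strand) lay between 28.8 and 63.6 CPM per kb, above 93.2% of tested genes. *Edn1* (ENSMUSG00000021367, chromosome 13, 42301476 to 42307990, plus strand) lay between 17.0 and 37.0 CPM per kb, above 84.0% of tested genes.

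The other 3 members were low. *Ece2* (ENSMUSG00000022842, chromosome 16, 20629828 to 20646485, plus strand) lay between 1.54 and 3.98 CPM per kb, above 32.4% of tested genes. *Ednra* (ENSMUSG00000031616, chromosome 8, 77663031 to 77724464, minus strand) lay between 0.557 and 3.15 CPM per kb, above 20.6% of tested genes. *Edn3* (ENSMUSG00000027524, chromosome 2, 174760619 to 174784042, plus strand) did not exceed 0.0906 CPM per kb and was not tested. In the *Ece2* locus, 57.5% of the exon bases are shared with *Gm49333* in the annotation used here, which has no count of its own in the table, so the *Ece2* values are uncertain. *Edn1* and *Ednra* share 1.64% and 1.66% of their exon bases with a gene on the other strand, and the libraries do not keep strand.

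Neighbours in this order differed in each of the 6 libraries, although their ranges over libraries overlapped for *Ednrb* with *Edn1* and for *Ece2* with *Ednra*. Within a library, the level per kb of *Ednrb* was 1.50 to 3.16 times that of *Edn1*. *Ednrb* exceeded *Ednra* by 12.4 to 51.3 times in the wt libraries and by 38.4 to 99.97 times in those labelled flt3L-/-. *Ece1* exceeded *Ece2* by 40.3 to 112 times. Over the length of the longest transcript in place of all exon bases, these ratios were 8.53 to 68.7 for the receptors and 29.9 to 83.3 for the enzymes over all libraries. The type B receptor and *Ece1* were thus the main receptor and converting enzyme transcripts of these cells in both groups.

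**Figure D1:**
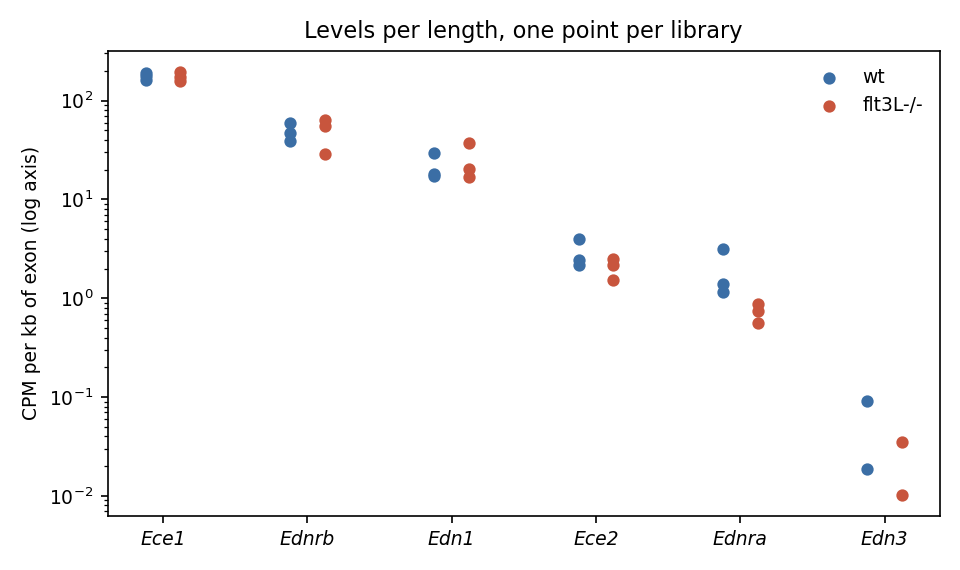
Level of each endothelin gene in CPM per kb of exon on a log axis, with 1 point per library, wt in blue and flt3L-/- in red. Ece1 lies highest at 157 to 195 and Edn3 lowest, and the 2 libraries without an Edn3 read are not drawn.

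The markers of the cells in which these genes are best known were also uneven. The 12 endothelial markers, among them *Cdh5* and *Kdr*, summed to 8995 to 12145 CPM, and none of the 12 was below 1 CPM on average. The 12 pericyte and smooth muscle markers summed to 540 to 1037 CPM. Markers of the neural crest lineages that depend on *Edn3* were near 0. The glial markers *Sox10*, *Gfra3* and *Foxd3* and the melanocyte markers *Dct*, *Tyr*, *Tyrp1* and *Mlana* each averaged below 1 CPM, and 6 melanocyte markers summed to 5.77 to 10.3 CPM.

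None of the 5 members that could be tested differed between the groups at an adjusted p under 0.05 in edgeR's quasi-likelihood test with the sorting date as a covariate. The share of all 13475 tested genes called in this way was 0%. The paper's own edgeR test, with an earlier version, called some genes at this level, none of them a member, and the fit here did not reproduce those calls. At an unadjusted p under 0.05, 484 genes differed, 2.49% of the tested genes being lower and 1.11% higher in flt3L-/-. Of the members, *Ednra* was the 1 with an unadjusted p under 0.05, with a lower level in flt3L-/-. With DESeq2, 21 genes but none of the members were called. Since the samples are pools, each p-value rests on the spread between 3 pairs of sorts, moderated by the spread of other genes. Fewer cells of a type and less RNA per cell cannot be told apart in these bulk samples.

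*Ednra*, the receptor that mediates the contractile response, showed the largest difference of the members. Values were 17.3, 7.61 and 6.29 CPM in wt and 4.84, 4.12 and 3.05 CPM in flt3L-/- in pairs 1, 2 and 3, from 444, 196 and 169 reads against 133, 97 and 77. The groups did not overlap, and the flt3L-/- library was the lower one in each of the 3 pairs. Of all tested genes, 2.92% did not overlap with lower values in flt3L-/-, and 11.5% were lower in each pair. The means were 10.4 ± 5.99 (wt) and 4.00 ± 0.904 CPM (flt3L-/-, SD, n = 3), and the wt library of pair 1 accounted for most of the wt spread.

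The log2 fold change of *Ednra* was −1.26 ± 0.30 (SE), with a 95% interval of −2.03 to −0.49 that is not corrected for the number of genes. Its unadjusted p of 0.00886 ranked 40 among the tested genes, and its adjusted p in edgeR was 0.973. DESeq2 gave the smallest adjusted p of any alternative, 0.244. Without pair 1, which holds the highest wt value, the log2 fold change was −0.97 with an unadjusted p of 0.0487, and it was −1.47 without pair 2 and −1.37 without pair 3. The difference was therefore negative in all these fits and passed the corrected threshold in none.

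**Figure D2:**
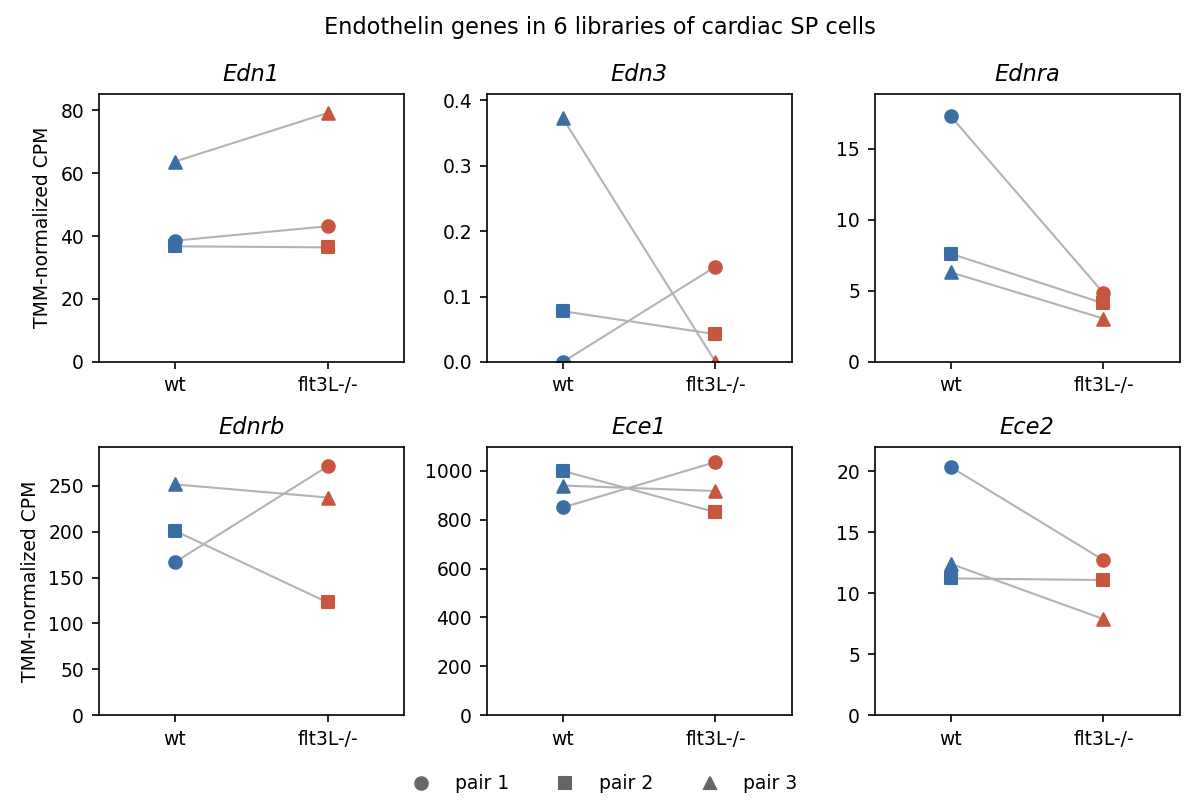
TMM-normalized CPM of the 6 endothelin genes, with 1 point per library and grey lines joining the wt (blue) and flt3L-/- (red) library of the same sorting date. Ednra is lower in flt3L-/- than in wt in each pair, with wt values of 6.29 to 17.3 and flt3L-/- values of 3.05 to 4.84, whereas the groups overlap for the other 5 genes.

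*Ednrb*, the receptor of endothelial cells, had 167, 201 and 252 CPM in the wt libraries of pairs 1, 2 and 3 and 271, 123 and 237 CPM in those labelled flt3L-/-. It was higher in flt3L-/- in pair 1, lower in pair 2 and close to wt in pair 3, with log2 differences of 0.70, −0.71 and −0.08. The log2 fold change was −0.03 ± 0.29 (SE, unadjusted p 0.920 and adjusted p 0.994 in edgeR), and its 95% interval ran from −0.80 to 0.73. Changes of *Ednrb* within these bounds remained compatible with the values of the 3 pairs.

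*Edn1*, the main ligand, had 38.5, 36.7 and 63.7 CPM in wt and 43.1, 36.4 and 79.1 CPM in flt3L-/- in pairs 1, 2 and 3. Both libraries of pair 3 were above all 4 libraries of the other dates, and the groups overlapped. The log2 fold change was 0.15 ± 0.14 (SE, unadjusted p 0.316 and adjusted p 0.973 in edgeR) with a 95% interval of −0.21 to 0.51. *Edn3* had 0, 2 and 10 reads in wt and 4, 1 and 0 in flt3L-/-, so that at most 10 reads of a library fell on it. A count of 0 allows up to 0.117 CPM in the wt library of pair 1 and up to 0.119 CPM in the flt3L-/- library of pair 3, and no difference between the groups was detectable at this depth. *Edn2*, whose peptide sequence is given with those of *Edn1* and *Edn3*, had 7 reads in all, in the flt3L-/- libraries of pairs 2 and 3.

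*Ece1*, the more abundant converting enzyme, had 850, 999 and 940 CPM in wt and 1036, 830 and 917 CPM in flt3L-/- in pairs 1, 2 and 3. Its log2 fold change was −0.01 ± 0.17 (SE, unadjusted p 0.976 and adjusted p 0.997 in edgeR) with a 95% interval of −0.45 to 0.44. Over all 6 libraries its coefficient of variation was 8.69%, against a median of 20.4% over the tested genes, and 7.72% of tested genes had a lower one. For *Ednra* this value was 72.1%, and 94.2% of tested genes varied less. *Edn1*, *Ednrb* and *Ece2* lay between these, at 35.8%, 26.9% and 33.0%.

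*Ece2*, known as a converting enzyme of acidic vesicles, had 20.3, 11.2 and 12.4 CPM in wt and 12.7, 11.1 and 7.88 CPM in flt3L-/- in pairs 1, 2 and 3. It was lower in flt3L-/- in each pair, by log2 differences of −0.67, −0.02 and −0.65, but the groups overlapped and pair 2 hardly differed. The log2 fold change was −0.45 ± 0.22 (SE, unadjusted p 0.10 and adjusted p 0.973 in edgeR) with a 95% interval of −1.03 to 0.13. Without pair 2 it was −0.69 with an unadjusted p of 0.0448 and the unadjusted p was 0.348 without pair 1 and 0.276 without pair 3.

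**Figure D3:**
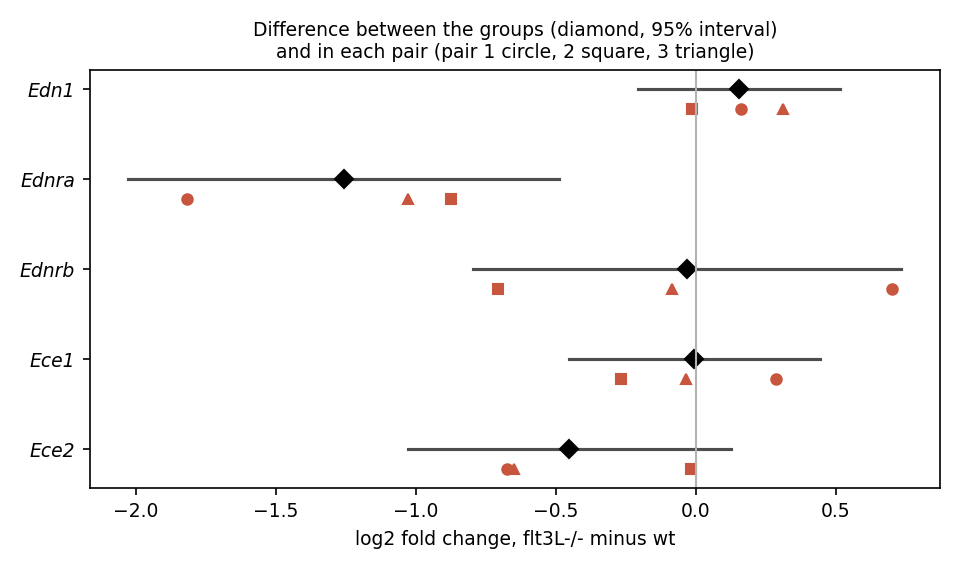
Log2 fold change of the 5 tested endothelin genes between flt3L-/- and wt (black diamonds) with 95% intervals not corrected for the number of genes (lines), and the log2 difference in each pair (red; circle pair 1, square pair 2, triangle pair 3). The interval of Ednra, −2.03 to −0.49, lies below 0, and the other 4 include 0.

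The balance of the receptors was followed as the share of *Ednra* among the reads of both receptors, which is not a share of molecules since the transcripts differ in length. It was 9.38% in the wt library of pair 1 (95% exact binomial interval 8.56 to 10.2%), 3.65% in that of pair 2 (3.16 to 4.18%) and 2.44% in that of pair 3 (2.09 to 2.83%). In the libraries labelled flt3L-/- it was 1.75% in pair 1 (1.47 to 2.08%), 3.24% in pair 2 (2.63 to 3.94%) and 1.27% in pair 3 (1.0 to 1.58%). The share was lower in flt3L-/- in each pair, the intervals of pair 2 overlapped, and the flt3L-/- value of pair 2 exceeded the wt value of pair 3. The intervals cover counting error only.

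As a log2 ratio of *Ednra* to *Ednrb*, the libraries labelled flt3L-/- differed from wt by −2.53, −0.18 and −0.96 in pairs 1, 2 and 3, with a mean of −1.22 ± 1.20 (SD, n = 3 pairs). The two-sided exact permutation test gave p = 0.25 within dates, the smallest that 3 pairs allow, and p = 0.2 across dates, where 0.1 is the smallest possible. The ratios of *Edn1* to *Ednrb* (mean log2 difference 0.18 ± 0.64, SD, n = 3 pairs, exact permutation p = 0.75 within and 0.6 across dates) and of *Ece1* to *Edn1* (−0.16 ± 0.25, exact permutation p = 0.5 and 0.7) did not move one way in all pairs. Of 3 ratios tested, only that of the receptors had the same sign in each pair, and none reached 0.05, which these permutations cannot reach with 3 libraries per group.

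**Figure D4:**
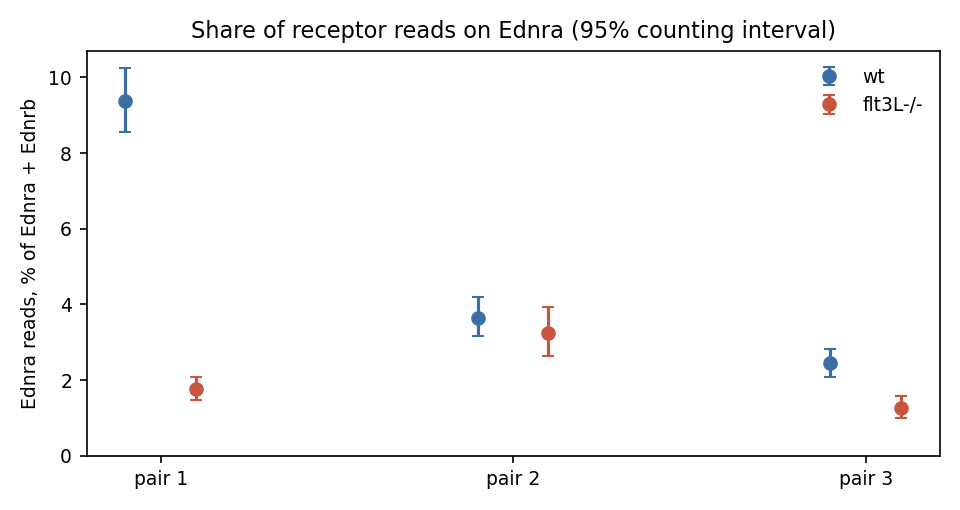
Reads on Ednra as a percentage of the reads on Ednra and Ednrb together in each library, by pair, with 95% exact binomial intervals that cover counting error only. The wt library of pair 1 stands at 9.38%, and the other 5 libraries lie between 1.27% and 3.65%.

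Of the cell types known to carry *Ednra*, markers of fibroblasts and of pericytes and smooth muscle cells were mostly lower in flt3L-/-, and those of cardiomyocytes mostly higher. All 12 fibroblast markers had a negative log2 fold change, with a median of −0.65, and *Col1a1*, *Col1a2* and *Col6a3* had an unadjusted p under 0.05. Their sum was 7443 to 17005 CPM in wt and 3638 to 11074 CPM in flt3L-/-, with log2 differences of −1.24, 0.20 and −1.03 in pairs 1, 2 and 3. Of the 12 pericyte and smooth muscle markers, 9 were lower, with a median of −0.42, and *Abcc9* and *Myh11* had an unadjusted p under 0.05. Their sum was 585 to 1037 CPM in wt and 540 to 780 CPM in flt3L-/-, with log2 differences of −0.41, 0.13 and −0.44. Of 9 tested cardiomyocyte markers, 8 had a positive log2 fold change, with a median of 0.33, and *Tnni3* had an unadjusted p under 0.05. The sum of all 10 was 141 to 208 CPM in wt and 210 to 245 CPM in flt3L-/-, with log2 differences of 0.73, 0.23 and 0.13. No marker of these 3 lists was at 0 in all libraries, none had an adjusted p under 0.05, and their part in the *Ednra* difference was not tested.

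*Ednra* was also set against the pericyte and smooth muscle sum and the fibroblast sum, as a description of values. Per 1000 CPM of pericyte and smooth muscle markers, it was 16.6, 13.0 and 8.58 CPM in wt and 6.21, 6.41 and 5.65 CPM in flt3L-/- in pairs 1, 2 and 3, a mean log2 difference of −1.02 ± 0.41 (SD, n = 3 pairs), and the groups did not overlap. Per 1000 CPM of fibroblast markers, it was 1.02, 0.790 and 0.846 CPM in wt and 0.671, 0.372 and 0.838 CPM in flt3L-/-. That mean log2 difference was −0.57 ± 0.54, the groups overlapped, and the libraries of pair 3 were nearly equal, with a log2 difference of −0.01. In pairs 1 and 3, the sums of both lists and *Ednra* were lower in flt3L-/-. In pair 2, both sums were higher and *Ednra* was lower by 0.87 on the log2 scale. Whether these cell types account for the *Ednra* difference was not tested.

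*Ece1* and *Ednrb* varied in the same direction as the endothelial markers in pairs 1 and 2 and were close to wt in pair 3. The summed endothelial markers had log2 differences of 0.39, −0.33 and 0.04 over pairs 1, 2 and 3, beside 0.29, −0.27 and −0.03 for *Ece1*. Per 1000 CPM of endothelial markers, *Ece1* was 92.0, 88.3 and 84.7 CPM in wt and 85.3, 92.3 and 80.6 CPM in flt3L-/-. *Ednrb* was 18.1, 17.8 and 22.7 CPM in wt and 22.3, 13.7 and 20.9 CPM in flt3L-/- on that scale. The mean log2 differences were −0.04 ± 0.09 for *Ece1*, −0.06 ± 0.35 for *Ednrb*, 0.12 ± 0.31 for *Edn1* and −0.48 ± 0.72 for *Ece2* (SD, n = 3 pairs), so that of these 4 *Ece1* kept the steadiest proportion to the endothelial markers.

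**Figure D5:**
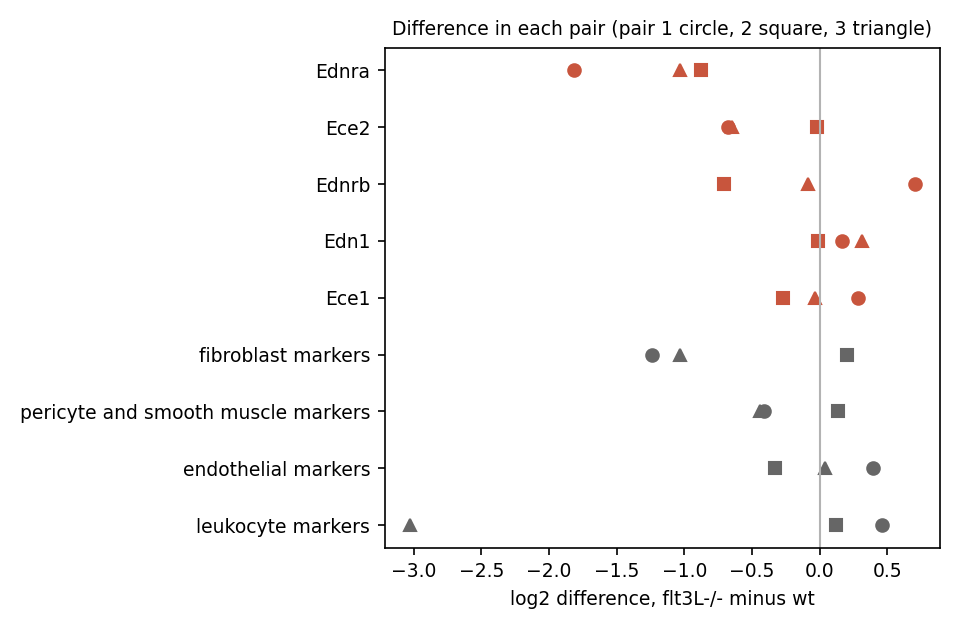
Log2 difference between flt3L-/- and wt in each pair (circle pair 1, square pair 2, triangle pair 3) for the 5 tested endothelin genes (red) and for the summed CPM of 4 lists of cell type markers (grey). Ednra is negative in all pairs, fibroblast and pericyte markers are negative in pairs 1 and 3, and the leukocyte markers of pair 3 reach −3.03.

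The sorting date was set against the genotype as a source of spread. *Edn1* had the smallest p for the date among the members, with a mean of 40.8, 36.6 and 71.4 CPM on the dates of pairs 1, 2 and 3 and a log2 difference of 0.96 between the last date, in 2017, and the second. Its unadjusted p was 0.00507 and its adjusted p 0.598 in edgeR. Of the other tested members, none had an unadjusted p under 0.05, a threshold that 8.28% of all tested genes passed and, after adjustment, 0%. The values were 0.0668 for *Ednra*, with means of 11.1, 5.86 and 4.67 CPM on the 3 dates and a larger log2 range of 1.09, 0.105 for *Ece2*, 0.317 for *Ednrb* and 0.979 for *Ece1*. For *Edn1*, the log2 range over dates (0.96) was larger than the log2 fold change between the groups (0.15). With the sign left aside, the same held for *Ednrb* (0.60 and −0.03), *Ece1* (0.044 and −0.005) and *Ece2* (0.70 and −0.45). For *Ednra* the range was the smaller value (1.09 and −1.26). Each range is the largest difference among 3 dates, which favours the date in this comparison.

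The genes most like each member over the 6 libraries were listed by Pearson's r of log2 CPM, as a description. *Edn1* was most like *Isyna1*, which makes inositol phosphate (r = 0.995), *Rrp1*, a ribosome assembly factor (0.994), and *Best1*, a chloride channel (0.989). By ranks (Spearman's rho), the value for *Rrp1* was lower, at 0.771, beside 0.943 for both *Isyna1* and *Best1*. *Ednra* was most like *Trabd2b*, a protease that inactivates Wnt proteins (0.996), *Clba1* (0.985) and *Crot*, an enzyme of fatty acid oxidation in peroxisomes (0.980). *Trabd2b* averaged 2.54 CPM and had a log2 fold change of −1.58 with an unadjusted p of 0.00833 in edgeR. *Ednrb* was most like *St6galnac3*, a sialyltransferase (0.995), *Wdr11* (0.987) and *4930590J08Rik* (0.986).

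*Ece1* was most like *Mylip*, a ubiquitin ligase that degrades the LDL receptor (0.992), *Gpalpp1* (0.991) and *Ssh1*, a phosphatase that activates cofilin (0.978). *Ece2* was most like *Cox4i2*, a subunit of cytochrome c oxidase (0.997), *Dzip1l*, a protein of the ciliary base (0.994), and *Runx1*, a transcription factor of blood formation (0.991). With 6 points, high values are common, since between 70 (*Ece1*) and 332 (*Ece2*) tested genes had an r above 0.9 with a member, and the points share depth and the date of the sort.

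The wider pathway was read from 75 genes in 5 lists, of which 65 could be tested. None had an adjusted p under 0.05, and at an unadjusted p under 0.05, 2 were lower and 0 higher in flt3L-/-, beside 2.49% and 1.11% of all tested genes. The median log2 fold change over all tested genes was −0.00027.

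Among 8 genes of peptide processing and breakdown, *Edn2*, *Ecel1*, *Kel* and *Mmel1* were too low to test, and the other 4 had a median log2 fold change of −0.45. *Mme*, or neprilysin, which degrades endothelins, averaged 13.0 ± 2.61 CPM in wt and 7.94 ± 4.23 CPM in flt3L-/- (SD, n = 3). It was the lower one in each pair, with a log2 fold change of −0.87 ± 0.32 (SE, unadjusted p 0.0453 in edgeR). *Cma1*, which encodes a mast cell protease, averaged 24.6 ± 0.854 and 12.5 ± 14.0 CPM, with log2 differences of −2.98, 0.26 and −2.05 in the pairs. *Ctsa*, a lysosomal carboxypeptidase that inactivates endothelin-1, was the most abundant of the list at 51.2 CPM per kb and had a log2 fold change of −0.03.

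Of 26 genes of receptor coupling and desensitisation, 16 had a negative and 10 a positive log2 fold change, with a median of −0.03. *Rgs4*, which shortens signalling of the Gq proteins, averaged 21.8 ± 12.7 CPM in wt and 12.2 ± 3.62 CPM in flt3L-/-, and its log2 fold change was −0.74 ± 0.24 (SE, unadjusted p 0.0308 in edgeR). *Itpr1*, an inositol trisphosphate receptor that releases calcium, had a log2 fold change of −0.51 ± 0.20 (SE) and an unadjusted p of 0.0520 in edgeR. The inhibitory *Gnai2* and the stimulatory *Gnas* were the most abundant G protein genes of the list per kb, at 233 and 95.1 CPM per kb, and had log2 fold changes of 0.29 and −0.15. None of these passed after adjustment, and *Rgs4* and *Itpr1* were lower in flt3L-/- in each pair.

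The contraction arm of 12 genes had a median log2 fold change of −0.06, and none had an unadjusted p under 0.05. Its most abundant genes per kb were *Rhoa*, a GTPase that promotes contraction (44.3 CPM per kb, log2 fold change 0.20), and *Arhgef1*, an exchange factor for it (43.9 CPM per kb, −0.19). Its smallest unadjusted p-values in edgeR were 0.0647 for *Arhgef11*, with a log2 fold change of −0.41, and 0.0926 for the calcium channel gene *Trpc6*, with −0.99. Both were lower in flt3L-/- in each pair.

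Among 13 regulators of *Edn1* transcription and counter-regulators, 7 had a positive and 6 a negative log2 fold change, with a median of 0.02. *Fos* and *Jun*, which bind as AP-1 to the *Edn1* promoter, were the most abundant per kb at 1549 and 970 CPM per kb, with log2 fold changes of 0.02 and 0.05. *Gata2* (0.28 ± 0.16, SE, unadjusted p 0.139 in edgeR) and *Smad3* (−0.46 ± 0.25, SE, unadjusted p 0.124) had the smallest p-values. None of these regulators differed at an unadjusted p under 0.05.

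Other Gq-coupled vasoconstrictor receptors gave a comparison for *Ednra*. Of 16 genes, 6 were too low to test, among them the angiotensin receptors *Agtr1a* and *Agtr1b*, and the other 10 had a median log2 fold change of 0.00. *F2r*, the thrombin receptor, and *P2ry2*, a receptor for extracellular nucleotides, were the most abundant per kb at 131 and 24.6 CPM per kb, with log2 fold changes of −0.02 and 0.49. *S1pr3*, a receptor for sphingosine 1-phosphate, had the smallest p in the list, with a log2 fold change of −0.45 ± 0.19 (SE, unadjusted p 0.0685 in edgeR), and *P2ry2* followed at 0.122. None of the 10 had an unadjusted p under 0.05, and whether *Ednra* differed from them was not tested.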

How the data were processed

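Per the labels and the study's methods, unstranded SMART-Seq v4 libraries were sequenced as single reads of 81 bases. The authors mapped them to mm10 with STAR 2.5.2a, kept reads with up to 10 hits and counted them per gene with QuasR 1.18.0 on Ensembl release 88. The deposited values are these counts, without normalization. Positions, exons and overlaps came from GENCODE M21 (GRCm38), which held 50376 of the genes. Tests in edgeR took the protein-coding genes that exceeded 1 CPM in 2 or more libraries (version 4.0.16, R 4.3.3, TMM, glmQLFit and glmQLFTest with legacy = TRUE, genotype plus sorting date, Benjamini-Hochberg over 13475 genes). Standard errors and 95% intervals came from the F statistic with 2.79 prior and 2 residual degrees of freedom. Log2 differences within pairs used a prior count of 2, and ratios used none. Identities came from pairwise alignment in Biopython 1.88. The scripts were tested on simulated data. Pairs share a sorting date, and deviations from the group means correlated at 0.180, 0.104 and 0.116 within pairs across genes, and from −0.354 to 0.247 between libraries of different dates. DESeq2 1.42.0 and limma 3.58.1 served as alternatives. The members and lists were chosen with earlier results of these data known. Named genes are the members, the 3 genes most alike to each by r, and per list the 2 with the smallest p and the 2 most abundant per kb, with other genes named as list members or as stated. The sources used here do not clearly state whether the whole SP or its Sca1+/CD31- fraction was sequenced. The results of some genes are not reported here.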

Additional observations from a re-analysis of the deposited data

How the results depend on the processing

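No member passed an adjusted p of 0.05 or 0.1 in any of the 14 alternative fits of the genotype. The log2 fold change of *Ednra* lay between −1.37 and −1.25 with all libraries (adjusted p 0.244 to 0.998) and between −1.47 and −0.97 with a pair left out; *Ece2* lay between −0.69 and −0.34 and *Edn1* between 0.07 and 0.22 with a pair left out. *Ednrb* turned to 0.028 without the replicate block and ran from −0.40 to 0.29 with a pair left out. *Ece1* was 0.00012 with upper quartile factors and ran from −0.15 to 0.10 with a pair left out. Members with an unadjusted p under 0.05 numbered 1 to 2 with a pair left out, the second being *Ece2* without pair 2. Over all genes, DESeq2 called 21 at an adjusted p under 0.05, and at an unadjusted p under 0.05, 262 differed without the replicate block and 249 to 980 with a pair left out. For the sorting date with a pair left out, 0 to 3 members and 699 to 1887 genes had an unadjusted p under 0.05, and 0 to 112 genes an adjusted one; the 3 members were *Edn1*, *Ednra* and *Ece2* without pair 2. Per length of the longest transcript, *Ednra* averaged 1.98 in place of 1.31, *Ece2* 3.66 in place of 2.47 and *Ece1* 193 in place of 175 CPM per kb. Other normalizations, filters, dispersions and the replicate block changed no other call of a member. *Edn3* was too rare to compare.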
